A study of Homo sapiens with 15 samples.

Results

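Ion channel genes were examined in MDA-MB-231, a human cell line from triple-negative breast cancer, for 2 histone marks. H3K4me3 marks active promoters, and H3K27ac marks both promoters and enhancers in use. The genes were taken by symbol from the protein-coding annotation. They comprise pore-forming and auxiliary subunits of potassium channels (symbols beginning KCN), subunits of voltage-gated sodium channels (SCN) and the alpha-1 and alpha-2-delta subunits of voltage-gated calcium channels (CACNA1, CACNA2D). This gave 122 of 20136 protein-coding genes. An H3K4me3 peak belonged to a channel gene when it lay within 2 kb of one of its annotated starts, and an H3K27ac peak when that gene had the nearest start, within 100 kb. By these rules 72 of 22572 H3K4me3 peaks and 317 of 62195 H3K27ac peaks belonged to channel genes.

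Besides the parental cells (Par), the study used LM2, derived from them and metastatic to the lung, and BrM2, likewise derived and metastatic to the brain. All 3 lines were grown without any drug or transgene named in the labels, in 10% serum for 3 days. Each line had 2 replicates per mark, described as biological in the study's methods, so that 12 libraries entered the analysis. The metastatic lines were selected by passage through animals and each is a single sub-population, so what distinguishes one population and what goes with an organ cannot be told apart.

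Voltage-gated channels open and close with the membrane potential and carry the currents of excitable cells. Potassium channels set the resting potential, sodium channels carry the upstroke of the action potential, and calcium channels couple voltage to calcium entry, secretion and contraction. Channels of each kind are also made by carcinoma cells, where they have been studied in migration, proliferation and volume control.

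Read counts in peaks ran from 3489607 to 9839629 per H3K4me3 library and from 1994996 to 6450028 per H3K27ac library. H3K4me3 promoter peaks were also counted over lists of cell type markers. They were present at 8 of 8 genes listed for mesenchymal breast cancer cells and at 9 of 10 luminal genes (none at TFF1). Peaks were found at 5 of 8 neuronal genes (none at STMN2, RBFOX3 and NEFL) and 3 of 4 glial genes (none at OLIG2). Of 4 lung epithelial genes 2 had one (none at SFTPB and SCGB1A1). Since 68.4% of all protein-coding genes had such a peak, these counts do not settle the cell type. The summed H3K4me3 level of the neuronal list, in normalized counts per kb, was 282.6 in Par, 329.9 in LM2 and 275.8 in BrM2. For the glial list it was 168.5, 203.8 and 295.7, and for the lung list 20.03, 40.1 and 54.2. The luminal list stood at 597.6, 761.8 and 861.6 and the mesenchymal list at 1060.0, 991.2 and 969.6. KRT8 and KRT18 entered the luminal sum with the same values (121.1, 95.02 and 112.9). In the glial list AQP4 (7.06 in Par, 88.95 in BrM2) and MBP (144.5 and 194.0) were higher in BrM2, while GFAP was lower (16.9 and 12.7). The part of these lists in the results was not tested.

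The results turn on a few promoters, and their sequences are given first, read from GRCh37, the build of the peaks. Each is the stretch of up to 250 bases before an annotated start, 5′ to 3′ on the strand of the gene, cut back where it ran into an annotated exon of a protein-coding gene. Capitals mark CG dinucleotides, since their number is later set beside the marks. The first is the inner start of KCNN2, where H3K4me3 was found mainly in BrM2 (chr5:113697517-113697660, plus strand).
KCNN2, inner start: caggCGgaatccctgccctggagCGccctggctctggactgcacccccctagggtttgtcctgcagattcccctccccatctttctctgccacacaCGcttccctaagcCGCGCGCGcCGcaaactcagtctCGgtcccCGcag
The next 3 rose or fell at their H3K4me3 peak in a metastatic line. KCNH8 (chr3:19189752-19190001, plus strand) and KCNK1 (chr1:233749602-233749851, plus strand) rose in LM2, while SCN8A (chr12:51984460-51984709, plus strand) fell.
KCNH8: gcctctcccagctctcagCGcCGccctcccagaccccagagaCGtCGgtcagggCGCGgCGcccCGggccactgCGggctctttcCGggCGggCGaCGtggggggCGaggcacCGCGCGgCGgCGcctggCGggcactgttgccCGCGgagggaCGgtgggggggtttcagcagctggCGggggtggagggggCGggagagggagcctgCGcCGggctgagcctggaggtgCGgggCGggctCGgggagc
KCNK1: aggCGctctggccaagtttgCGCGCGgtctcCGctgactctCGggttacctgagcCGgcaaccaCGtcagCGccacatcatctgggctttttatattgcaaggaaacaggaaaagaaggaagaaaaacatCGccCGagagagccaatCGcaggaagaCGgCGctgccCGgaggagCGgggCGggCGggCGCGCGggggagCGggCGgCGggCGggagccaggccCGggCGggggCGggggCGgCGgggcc
SCN8A: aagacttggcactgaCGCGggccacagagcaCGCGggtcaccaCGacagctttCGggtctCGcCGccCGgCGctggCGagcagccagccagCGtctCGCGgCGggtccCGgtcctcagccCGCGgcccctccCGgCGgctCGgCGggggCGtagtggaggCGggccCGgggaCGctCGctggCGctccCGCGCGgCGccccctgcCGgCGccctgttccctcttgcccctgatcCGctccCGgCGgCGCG
CACNA2D4 (chr12:1920958-1921136, minus strand) and an inner KCNIP3 start (chr2:95983344-95983593, plus strand) rose in BrM2, and are poor in CG.
CACNA2D4, inner start: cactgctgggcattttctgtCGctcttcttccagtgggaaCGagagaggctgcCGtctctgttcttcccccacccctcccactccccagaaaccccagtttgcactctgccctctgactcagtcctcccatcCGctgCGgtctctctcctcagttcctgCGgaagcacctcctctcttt
KCNIP3, inner start: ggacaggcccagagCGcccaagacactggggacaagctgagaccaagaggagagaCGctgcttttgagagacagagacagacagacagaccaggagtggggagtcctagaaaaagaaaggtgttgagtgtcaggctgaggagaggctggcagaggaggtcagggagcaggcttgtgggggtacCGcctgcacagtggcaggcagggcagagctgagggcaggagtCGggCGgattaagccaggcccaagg
The inward rectifiers KCNJ5 (chr11:128761001-128761250, plus strand) and KCNJ8 (chr12:21927991-21928240, minus strand) had the same course over the lines, with 24 and 3 CG dinucleotides. KCNK3 (chr2:26915340-26915589, plus strand) had no H3K4me3 promoter peak although it holds 27.
KCNJ5: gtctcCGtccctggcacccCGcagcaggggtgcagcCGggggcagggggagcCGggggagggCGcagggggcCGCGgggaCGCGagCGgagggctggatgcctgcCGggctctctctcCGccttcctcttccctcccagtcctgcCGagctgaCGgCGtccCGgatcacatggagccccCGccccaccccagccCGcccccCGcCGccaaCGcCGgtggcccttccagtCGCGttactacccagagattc
KCNJ8: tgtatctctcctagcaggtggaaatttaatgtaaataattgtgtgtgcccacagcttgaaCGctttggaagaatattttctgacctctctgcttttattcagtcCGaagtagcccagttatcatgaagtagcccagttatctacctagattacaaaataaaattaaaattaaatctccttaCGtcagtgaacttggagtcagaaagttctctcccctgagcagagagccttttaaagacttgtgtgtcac
KCNK3: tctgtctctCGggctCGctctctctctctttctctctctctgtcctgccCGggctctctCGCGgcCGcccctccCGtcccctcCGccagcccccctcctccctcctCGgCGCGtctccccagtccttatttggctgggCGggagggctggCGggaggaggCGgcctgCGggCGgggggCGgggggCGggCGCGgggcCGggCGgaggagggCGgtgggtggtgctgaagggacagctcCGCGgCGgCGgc

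The promoter mark was found at a smaller share of channel genes than of all genes. An H3K4me3 promoter peak was found at 65 of the 122 channel genes (53.3%), compared with 13780 of 20136 protein-coding genes (68.4%). H3K27ac was assigned to 81 channel genes (66.4%, against 72.7% of all genes). Both marks were found at 53 channel genes, H3K4me3 alone at 12, H3K27ac alone at 28 and neither at 29. The share of genes with H3K4me3 was 75% among calcium- or sodium-activated potassium channels (6 of 8) and alpha-2-delta subunits (3 of 4). It was 62.5% for potassium auxiliary subunits (10 of 16) and 60.0% for two-pore-domain potassium channels (9 of 15), which carry leak currents. It was 50% for sodium alpha (5 of 10) and beta subunits (2 of 4), 47.5% for voltage-gated potassium alpha subunits (19 of 40), 46.7% for inward rectifiers (7 of 15) and 40.0% for calcium alpha-1 subunits (4 of 10). No test was made between these classes.

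Channel promoters that were marked had lower H3K4me3 than promoters at large. The median level was 54.4 normalized counts per kb of peak over the 72 channel peaks and 137 over the 13369 promoter peaks of all protein-coding genes, of which 17.0% lay below the channel median. Median peak length was 1259 bp for channel genes and 2225 bp for promoters in all. For H3K27ac the medians were closer, at 17.4 and 19.2 normalized counts per kb and 1069 and 1546 bp. Of the 317 H3K27ac peaks, 250 lay beyond 2 kb from a start, and the centre of 214 fell in an intron, of 80 between genes and of 23 in an exon.

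The gap in H3K4me3 was found among genes whose record start was rich in CG. In the 300 bases around the start of the gene record (250 before and 50 from the start on), channel genes with an H3K4me3 promoter peak had a median of 22 CG dinucleotides and those without had 9, with a GC content of 67.0% and 62.0%. For all protein-coding genes the corresponding medians were 23 and 5, and 63.3% and 52.0%. Among windows with 20 or more CG, 34 of 55 channel genes (61.8%) and 8356 of 9404 protein-coding genes (88.9%) had an H3K4me3 promoter peak. At 5 to 9 CG the shares were 47.6% (10 of 21) and 48.3%, and at 0 to 4 they were 25% (6 of 24) and 29.9%. The window is that of the gene record, while a peak near any annotated start counted. Of the 6 marked genes at 0 to 4 CG, KCNK2, CACNA1D and CACNA2D4 had their peak 76649, 165122 and 106907 bp from the record start. KCNAB2, KCNJ16 and SCN8A had one at 103, 80 and 266 bp. KCNIP4, with 47 CG, counted as marked through a peak 644093 bp away. The part of this in the shares was not tested. The CG-rich channel genes without the peak numbered 21. They included the Kv1 genes KCNA1, KCNA3, KCNA4, KCNA6 and KCNA7, the calcium channel genes CACNA1B, CACNA1E and CACNA1H, and KCNMA1. Of these 21, 11 had an H3K27ac peak, beside 28 of all 57 channel genes without the H3K4me3 peak. Among all 122 channel genes 81 had one (66.4%), and among all protein-coding genes 72.7% did. Such a peak was assigned by the nearest start and need not lie at the promoter.

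**Figure D1:**
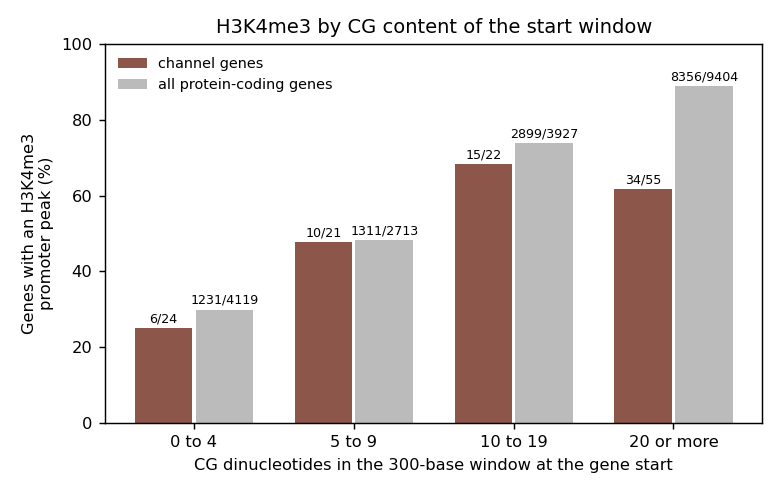
Share of genes with an H3K4me3 promoter peak (vertical axis, percent) by the number of CG dinucleotides in the 300-base window at the start of the gene record (horizontal axis), for channel genes (brown) and all protein-coding genes (grey), with the numbers of genes above the bars. The bars of the 2 sets are close at 5 to 9 CG (47.6% and 48.3%) and far apart at 20 or more (61.8% and 88.9%).

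A set of 4 short motifs was searched on both strands of the same windows, N standing for any base. TTCAGCACC, a part of the site bound by REST, a repressor of neuronal genes, was found in 3 of the 57 channel windows without an H3K4me3 promoter peak (5.26%), in 0 of the 65 with one and in 0.446% of all protein-coding windows. The 3 genes were KCNK3, KCNS2 and KCNH6. The AP-1 motif TGANTCA was found in 2 channel windows (1.64%, against 6.36% of all), the GC box GGGCGG in 70 (57.4%, against 52.1%) and TATAAA in 11 (9.02%, against 10.9%). Such matches describe these letters and do not show a bound site.

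The strongest H3K4me3 in the classes given here stood at genes with no call in the test used. CACNA2D1, an alpha-2-delta subunit that carries calcium channels to the surface, had the highest level of any channel gene (323.7 normalized counts per kb). KCNC4, a fast-deactivating Kv3 channel, followed with 291.4. KCNAB2, a beta subunit of Kv1 channels, had 262.7, and SCN11A, the sodium channel NaV1.9 of sensory neurons, had 260.9. Next came KCNK6 with 170.7, KCNJ11, the pore of the ATP-sensitive channel, with 167.4, KCNN1 with 152.1 and CACNA1S with 94.9. The peaks at SCN11A, KCNAB2 and KCNK6 also lay within 2 kb of a start of WDR48, NPHP4 and YIF1B, as 8 of the 72 did for some other gene, and their reads cannot be given to one gene. At CACNA2D1 the normalized counts were 1176 and 739.0 (Par), 1052 and 664.9 (LM2) and 694.7 and 490.5 (BrM2) (replicates 1 and 2). BrM2 lay below Par, and LM2 overlapped both. Its log2 fold change in BrM2 against Par was -0.69 ± 0.37 (SE; adjusted p = 0.531), and with the replicate number as a block the adjusted p was 1.78e-07, and 8.95e-05 in BrM2 against LM2. The block also moved KCNC4 (adjusted p = 0.0248) past the threshold in LM2 and SCN11A in BrM2 against LM2 (0.0163). The KCNN1 peak given above did not pass in LM2 with the block (0.294). Another, weaker KCNN1 peak (11.7 normalized counts per kb) did (0.0147).

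Of 15 genes listed from work on breast cancer, 11 had an H3K4me3 promoter peak, and none of these peaks passed the test. KCNMA1 had only H3K27ac, and KCNA3, CACNA1C and CACNA1H had no peak of either mark. SCN9A stood at 72.4 normalized counts per kb, KCNQ1 at 56.1, KCNN4, the intermediate-conductance channel, at 55.1, CACNA1G at 53.6 and KCNH1 at 52.7. KCNK9 (23.8), KCNK5 (15.3) and KCNJ3 (15.01) had the lowest levels. With the block, KCNN4 passed the threshold in BrM2 (adjusted p = 0.0467), and KCNJ3 (0.0167) and KCNK5 (0.0255) did in BrM2 against LM2.

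Where H3K4me3 at channel promoters changed against Par, it mostly rose. In LM2, 6 of the 66 channel peaks with an adjusted p rose (9.09%) and 1 fell (1.52%), where 1.97% of all 20821 tested peaks rose and 0.538% fell. Of promoter peaks of all genes, 2.28% were called in either direction. In BrM2, 8 of 72 rose (11.1%) and 0 fell, where 2.82% of 22134 rose, 0.791% fell and 2.97% of promoter peaks were called. Between BrM2 and LM2, 6 of 72 were higher in BrM2 and 2 lower, with 2.05% and 1.13% of 22572 peaks and 2.45% of promoter peaks. The median log2 fold change of channel peaks was 0.35 in LM2 and 0.41 in BrM2, with 50 and 52 of 72 above 0, and the median over promoter peaks of all genes was 0.00 and -0.07. Both comparisons use the same Par libraries. The 15 peaks called in any comparison belonged to 13 genes.

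With the replicate block, the calls rose to 19 in LM2 (28.8%), 19 in BrM2 (26.4%) and 23 for BrM2 against LM2 (33.3%), where 14.4%, 17.7% and 22.0% of all peaks were called. Of these, 17 were higher and 2 lower in LM2, and 16 were higher and 3 lower in BrM2. Between BrM2 and LM2 the block gave 11 higher and 12 lower, so that the excess of higher calls in BrM2 was not seen there. Each of the 15 peaks was called in some comparison in both fits. Without 1 library, the LM2 count of 7 fell to 4 without Par replicate 1, LM2 replicate 1 or either BrM2 replicate, to 3 without Par replicate 2 and to 2 without LM2 replicate 2. The BrM2 count of 8 fell to 5 without either Par replicate and to 3 without BrM2 replicate 2. The count of 8 between BrM2 and LM2 fell to 4 without either LM2 replicate or BrM2 replicate 1 and to 2 without BrM2 replicate 2.

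KCNN2, the small-conductance calcium-activated channel SK2, had the largest difference among these peaks, at 2 starts of the gene. The inner peak (chr5:113696325-113698703), 304702 bp from the start of the gene record, had normalized counts of 11.02 and 28.5 (Par), 16.8 and 20.6 (LM2) and 598.5 and 456.9 (BrM2). The BrM2 libraries lay far above the other 4, which overlapped. H3K4me3 was 24.6-fold higher in BrM2 than in Par (log2 4.62 ± 0.46, adjusted p = 3.13e-20) and 27.6-fold higher than in LM2 (log2 4.79 ± 0.45, adjusted p = 8.21e-23). Both calls held without each library in turn. At the gene start the counts were 11.02 and 5.39 (Par), 0 and 2.65 (LM2) and 76.5 and 43.0 (BrM2). BrM2 was again above the other lines, by a log2 of 2.95 ± 0.77 over Par (adjusted p = 0.00593) and 5.04 ± 0.96 over LM2 (adjusted p = 2.05e-05). The call against Par was lost without BrM2 replicate 1 (adjusted p = 0.632), BrM2 replicate 2 (0.0992) or Par replicate 2 (0.401), and in edgeR (0.0507). The 7 other H3K4me3 peaks within 1 Mb of the inner peak had a median log2 fold change of -0.04 in BrM2. Its single H3K27ac peak was not called, and passed only with the block, in BrM2 against LM2 (0.0383).

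The promoters of 5 voltage-gated potassium channel genes rose, of 19 with an H3K4me3 peak. Of all 65 channel genes with such a peak, 13 were called in some comparison. KCNQ3, a subunit of the M-current that restrains repetitive firing, had normalized H3K4me3 counts of 73.5 and 63.2 (Par), 365.9 and 374.8 (LM2) and 384.9 and 342.3 (BrM2). Both metastatic lines were above Par and overlapped each other, with log2 fold changes of 2.45 ± 0.35 (adjusted p = 2.75e-09) and 2.42 ± 0.35 (1.99e-09). These calls held without each library. KCNB2, the delayed rectifier Kv2.2, had counts of 12.9 and 18.5 (Par), 74.7 and 87.4 (LM2) and 108.1 and 125.7 (BrM2). It rose by a log2 of 2.33 ± 0.50 in LM2 (adjusted p = 0.000565) and 2.85 ± 0.50 in BrM2 (2.36e-06), and the LM2 call was lost without LM2 replicate 2 (0.0759) or Par replicate 2 (0.0804). The 8 other peaks within 1 Mb of KCNB2 had a median of 0.64 in BrM2.

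KCNH8, an Elk-type channel, had counts of 36.7 and 53.9 (Par), 181.4 and 235.0 (LM2) and 108.1 and 195.4 (BrM2). The metastatic libraries were all above Par, by 2.18 ± 0.44 (log2; adjusted p = 0.000185) in LM2 and 1.73 ± 0.45 (0.00557) in BrM2. In LM2 the call was lost without LM2 replicate 2 (0.0689), and in BrM2 without BrM2 replicate 2 (0.497), Par replicate 1 (0.215) or Par replicate 2 (0.0616). The 10 neighbouring peaks within 1 Mb had a median of 0.70 in LM2. KCND3, the A-type channel Kv4.3, rose in LM2. Its counts were 34.9 and 28.5 (Par), 93.0 and 105.9 (LM2) and 43.5 and 62.2 (BrM2), so that the lines did not overlap and LM2 was the highest, above Par by a log2 of 1.67 ± 0.48 (adjusted p = 0.0245). That call was lost in edgeR (0.0744) and without any one of the 6 libraries (0.0573 to 0.68). KCNF1, the silent subunit Kv5.1 that acts only with Kv2 channels, rose in BrM2 from 5.51 and 3.85 in Par to 40.9 and 38.6, with 15.3 and 16.9 in LM2. The 3 lines did not overlap, and BrM2 differed from Par by 3.15 ± 0.81 (adjusted p = 0.00498). Its call was lost without either BrM2 replicate (0.164 and 0.159) or either Par replicate (0.0549 and 0.341).

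**Figure D2:**
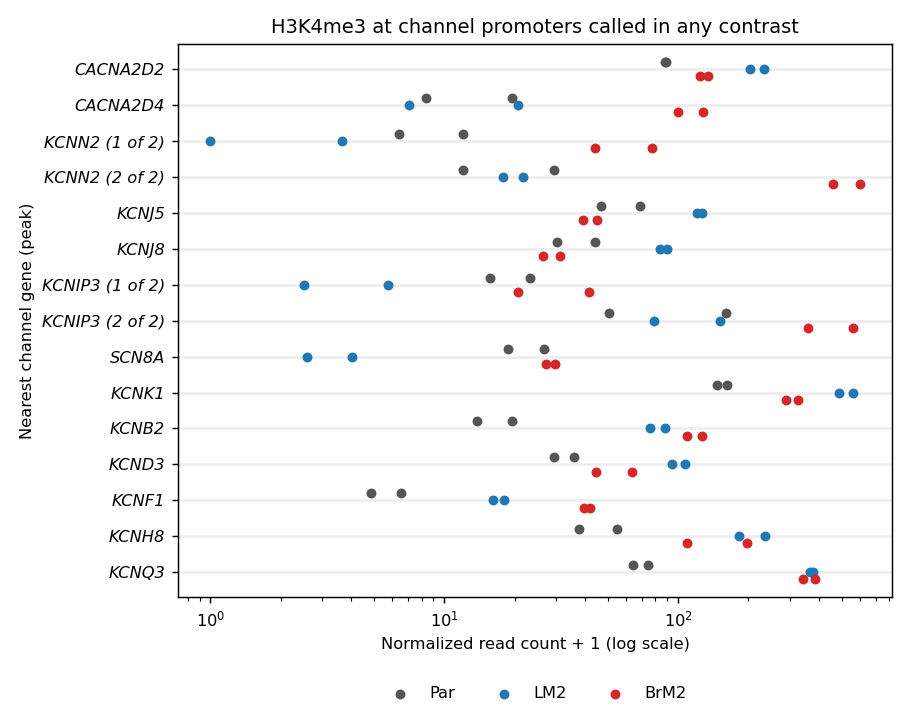
Normalized H3K4me3 read count plus 1 (horizontal log axis) in each library at the 15 channel promoter peaks called in any comparison, with 1 row per peak and 2 points per line (Par grey, LM2 blue, BrM2 red). At the inner KCNN2 peak (2 of 2) the BrM2 libraries stand at 598.5 and 456.9 and the other 4 at or below 28.5.

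Other potassium channel genes differed in one line. KCNK1, the two-pore-domain channel TWIK1, had normalized H3K4me3 counts of 161.7 and 146.4 (Par), 561.1 and 488.1 (LM2) and 288.7 and 324.3 (BrM2). The lines did not overlap, and LM2 was above Par by a log2 of 1.77 ± 0.33 (adjusted p = 1.97e-05), which held without each library. BrM2 was above Par by 1.00 ± 0.33 (0.0652), which passed with the replicate block (1.48e-06), as did the difference of BrM2 from LM2 (8.75e-05). The inward rectifiers KCNJ5 and KCNJ8, pores of the G protein-gated channel GIRK4 and of the vascular ATP-sensitive channel, were lower in BrM2 than in LM2. KCNJ5 had counts of 45.9 and 67.8 (Par), 125.0 and 119.1 (LM2) and 38.2 and 44.2 (BrM2), and KCNJ8 had 29.4 and 43.2, 82.3 and 88.9, and 30.3 and 25.5. In both, LM2 stood above the other 4 libraries. BrM2 minus LM2 was -1.56 ± 0.44 (adjusted p = 0.0176) for KCNJ5 and -1.63 ± 0.49 (0.0343) for KCNJ8, and LM2 against Par passed only with the block (0.0154 and 0.0272). The KCNJ8 call was lost without any one library (0.0561 to 0.732) and in edgeR (0.0842). The KCNJ5 call was lost in edgeR (0.0536) and without either replicate of LM2 (0.284 and 0.247) or BrM2 (0.298 and 0.325). The 15 peaks around KCNJ5 had a median of -0.51.

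KCNIP3 encodes calsenilin, a calcium-binding protein that acts on Kv4 channels and as a transcriptional repressor. Its longest peak (chr2:95981058-95986298), at an inner start, had normalized counts of 49.6 and 159.5 (Par), 77.8 and 149.8 (LM2) and 359.9 and 560.2 (BrM2). Par and LM2 overlapped, and BrM2 was above both, by 2.11 ± 0.50 over Par (log2; adjusted p = 0.00156) and 2.001 ± 0.49 over LM2 (0.00307). Both calls were lost without BrM2 replicate 2 (0.22 and 0.387), the first also without Par replicate 1 (0.147) and the second without LM2 replicate 1 (0.202). At the gene start the counts were 14.7 and 22.4 (Par), 1.53 and 4.77 (LM2) and 19.8 and 40.5 (BrM2). There LM2 was the lowest line, with BrM2 above it by 3.09 ± 0.87 (adjusted p = 0.0167), a call lost without either BrM2 replicate (0.0748 and 0.871), either LM2 replicate (0.218 and 0.258) or Par replicate 2 (0.0561). With the block LM2 also passed as lower than Par there (0.0235). The strongest KCNIP3 peak lay at another inner start (chr2:96010832-96013359), with 189.4 normalized counts per kb, beside 43.15 for the longest. Its counts were 536.5 and 383.0 (Par), 449.8 and 405.5 (LM2) and 603.8 and 494.2 (BrM2). The lines overlapped, and that peak was not called in any comparison, with the block or without.

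Among sodium channels, SCN8A, the NaV1.6 channel of axon initial segments, was the only gene called. Its counts were 25.7 and 17.7 (Par), 3.05 and 1.59 (LM2) and 26.4 and 28.6 (BrM2). LM2 lay below both other lines, by -3.37 ± 0.95 against Par (log2; adjusted p = 0.0215), and BrM2 was above LM2 by 3.74 ± 0.94 (0.00394). Counts are low in LM2, and the fall against Par was lost in edgeR (0.0548) and without any one library (0.0692 to 0.567). The higher level in BrM2 was lost without LM2 replicate 2 (0.319) or either BrM2 replicate (0.0828 and 0.181). The sodium beta subunits had no call.

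Of the calcium channel genes, the alpha-2-delta subunits CACNA2D2 and CACNA2D4 were called and the 4 marked alpha-1 genes were not. At the inner CACNA2D4 start (chr12:1919047-1920925) the counts were 7.35 and 18.5 (Par), 6.10 and 19.6 (LM2) and 98.9 and 127.0 (BrM2). Par and LM2 were alike in range and BrM2 was above them by 3.03 ± 0.62 (against Par, adjusted p = 0.000119) and 3.02 ± 0.60 (against LM2, 7.13e-05). Both calls were lost without BrM2 replicate 2 (0.0943 and 0.115). CACNA2D2 had 88.2 and 87.1 (Par), 202.8 and 232.4 (LM2) and 122.6 and 133.2 (BrM2). LM2 was the highest line, above Par by 1.32 ± 0.37 (adjusted p = 0.0199), which was lost without any one library (0.0552 to 0.454). With the block BrM2 was also below LM2 (0.00741).

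H3K27ac at channel genes changed at a share nearer to that of all peaks. In LM2, 13 of the 232 channel peaks with an adjusted p rose (5.6%) and 0 fell, where 2.72% of 48931 peaks rose and 0.907% fell. In BrM2, 15 of 251 rose (5.98%) and 1 fell (0.398%), where 3.62% of 51342 rose and 1.67% fell. Between BrM2 and LM2, 5 of 217 were higher in BrM2 (2.3%) and 3 lower (1.38%), beside 1.71% and 1.22% of 46519. Channel peaks had a median log2 fold change of 0.20 (LM2) and 0.24 (BrM2), with 189 and 194 of 317 above 0, and -0.04 and -0.02 over all peaks within 100 kb of a start. The 26 peaks called in any comparison belonged to 19 genes, and 21 of them lay beyond 2 kb from a start.

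With the replicate block 20 channel peaks were called in LM2 (8.85%), 28 in BrM2 (12.1%) and 15 between the metastatic lines (7.85%), beside 5.44%, 8.13% and 6.17% of all peaks. They were 18 higher and 2 lower, 23 higher and 5 lower, and 11 higher and 4 lower. The LM2 count of 13 fell to 3, 2, 1 and 3 without Par replicate 1, Par replicate 2, LM2 replicate 1 and LM2 replicate 2. The BrM2 count of 16 fell to 7 without either Par replicate, to 6 without BrM2 replicate 1 and to 2 without BrM2 replicate 2. The count of 8 between BrM2 and LM2 became 0, 2, 1 and 0 without LM2 replicate 1, LM2 replicate 2, BrM2 replicate 1 and BrM2 replicate 2.

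KCNMA1, the large-conductance calcium- and voltage-activated channel BK, had 38 H3K27ac peaks, the most of any channel gene, and no H3K4me3 promoter peak, the nearest being 72857 bp from its gene start. Of the 38 peaks, 30 had a log2 fold change above 0 in LM2 (median 0.66) and 30 in BrM2 (median 0.36), and 5 were called. The peak at the gene start (chr10:79396324-79403188) had normalized counts of 74.9 and 56.1 (Par), 171.1 and 134.0 (LM2) and 142.3 and 102.2 (BrM2). Both metastatic lines lay above Par, LM2 by 1.22 ± 0.35 (adjusted p = 0.0189). BrM2 was above Par by 0.91 ± 0.36 (0.129), which passed with the block (0.0383). Of 3 further called peaks in introns, all higher in LM2, the broadest (chr10:79281194-79298225) had 167.3 and 177.3 (Par), 348.4 and 400.2 (LM2) and 257.4 and 314.2 (BrM2) (LM2 log2 1.12 ± 0.28, adjusted p = 0.00353; BrM2 with the block, 0.021). The one called in BrM2 (chr10:79145435-79155188) had 214.3 and 225.4 (Par), 357.3 and 362.7 (LM2) and 382.2 and 385.6 (BrM2) (log2 0.80 ± 0.26, adjusted p = 0.0427), and passed in LM2 with the block (0.0156). All 5 calls were lost without either Par replicate or either replicate of the metastatic line (adjusted p from 0.062 to 0.683).

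**Figure D3:**
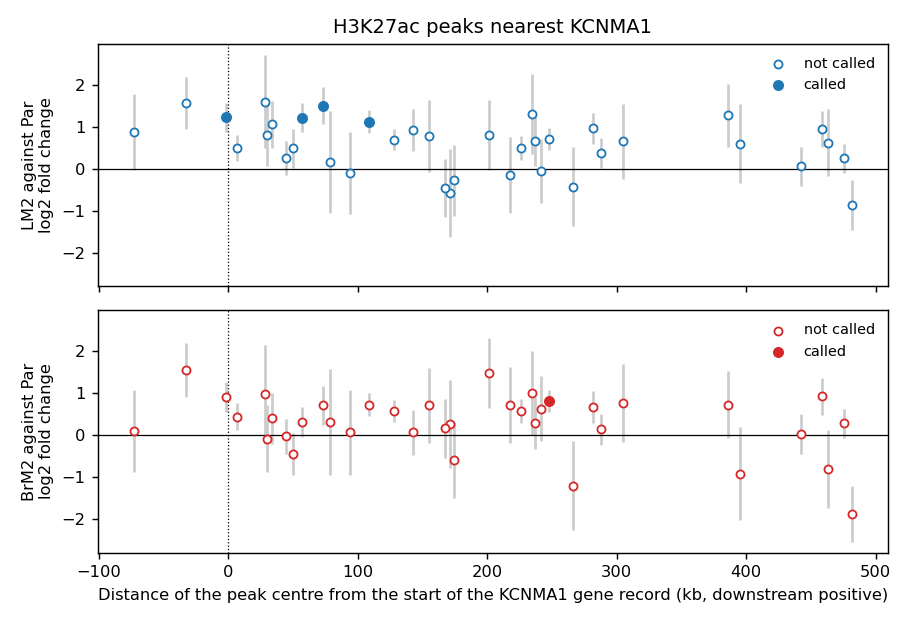
Log2 fold change of H3K27ac against Par (vertical axes; LM2 above, BrM2 below) for the 38 peaks nearest KCNMA1, by the distance of the peak centre from the start of the gene record (horizontal axis, kb, downstream positive). Bars are standard errors and filled points are called peaks. In each line 30 of the 38 points lie above 0.

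Of the 39 H3K27ac peaks at two-pore-domain genes 6 were called in some comparison, where 26 of the 317 at all channel genes were. The share called in any comparison was not taken over all H3K27ac peaks, and no test was made between classes. KCNK3, the acid-sensitive channel TASK1, had 7 H3K27ac peaks, all above 0 in LM2 (median log2 fold change 2.20) and 6 above 0 in BrM2 (median 1.66). The called intronic peak 3329 bp from its start (chr2:26918919-26922037) had 8.71 and 5.01 (Par), 63.4 and 43.4 (LM2) and 25.4 and 17.4 (BrM2). The lines did not overlap, and LM2 was above Par by 2.95 ± 0.61 (adjusted p = 0.00023). A second (chr2:26927017-26928192) had 2.61 and 3.01 (Par), 25.2 and 40.4 (LM2) and 17.6 and 34.7 (BrM2). It was above Par in LM2 by 3.54 ± 0.81 (adjusted p = 0.0013) and in BrM2 by 3.18 ± 0.83 (0.00572). The first call was lost without LM2 replicate 1 (0.175) or Par replicate 2 (0.0504), and those of the second without replicate 2 of the metastatic line (0.11 and 0.21) or either Par replicate (0.0615 to 0.134). KCNK12, the THIK2 channel, had a peak 67399 bp from its start with 48.8 and 31.1 (Par), 67.9 and 65.1 (LM2) and 166.7 and 183.1 (BrM2). BrM2 stood above the other lines, by 2.12 ± 0.37 over Par (adjusted p = 2.12e-06), which held without each library. Its difference of 1.39 from LM2 (0.00584) was lost without either replicate of BrM2 (0.348 and 0.286) or LM2 (0.213 and 0.175). At KCNK16 the rise in BrM2 (log2 1.06 ± 0.34, adjusted p = 0.0391) matched its surroundings, since the 21 other peaks within 1 Mb had a median of 1.09, and it was lost without any one library (0.0893 to 0.441).

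Of the 98 H3K27ac peaks at voltage-gated potassium alpha subunit genes 7 were called in some comparison, beside 26 of the 317 at all channel genes. KCNS2, a silent subunit, had a peak 59213 bp away with 10.5 and 15.02 (Par), 30.3 and 43.4 (LM2) and 73.1 and 92.5 (BrM2). The lines did not overlap, and the rise in BrM2 of 2.70 ± 0.50 (adjusted p = 1.33e-05) held without each library. LM2 was above Par there with the block (0.0308). Its second called peak, 26893 bp away, had 7.84 and 8.01 (Par), 39.3 and 43.4 (LM2) and 40.0 and 54.0 (BrM2). Both metastatic lines stood above Par there, by 2.38 ± 0.57 in LM2 (adjusted p = 0.00225) and 2.55 ± 0.58 in BrM2 (0.000776). The LM2 call was lost without either replicate of LM2 (0.111 and 0.0955) or Par (0.102 and 0.079), and the BrM2 call without BrM2 replicate 2 (0.0717). At KCNG1, another silent subunit, the peak 99003 bp away had 7.84 and 8.01 (Par), 21.3 and 28.6 (LM2) and 41.9 and 108.0 (BrM2). BrM2 was above Par by 3.21 ± 0.61 (adjusted p = 2.57e-05), a call lost without BrM2 replicate 2 (0.0967), and with the block it was also above LM2 (0.0413).

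Inward-rectifier genes had 3 called H3K27ac peaks of 42, in both directions, beside 26 of the 317 at all channel genes. KCNJ1, the renal channel ROMK, had 9 H3K27ac peaks, of which 4 were above 0 in BrM2 and 1 was called. The called peak (chr11:128658994-128661133) lay outside the gene record (chr11:128706210-128737268) and fell in BrM2. It had 37.5 and 65.1 (Par), 34.8 and 46.3 (LM2) and 11.7 and 7.71 (BrM2), with BrM2 below the other 4 libraries, by -2.34 ± 0.60 against Par (adjusted p = 0.00428). The 81 other peaks within 1 Mb had a median of -0.71, and the call was lost without either BrM2 replicate (0.169 and 0.117) or Par replicate 2 (0.217). KCNJ12, the Kir2.2 channel, had 3.49 and 12.02 (Par), 32.5 and 47.3 (LM2) and 18.5 and 25.1 (BrM2). LM2 was above Par by 2.38 ± 0.65 (adjusted p = 0.0118), which was lost without either LM2 replicate (0.193 and 0.385) or Par replicate 1 (0.413). Low counts stood behind other calls. At KCNIP3 the H3K27ac peak 11944 bp from a start held 27 reads in BrM2 and 3 in Par, a ratio of 12.5 after scaling (95% interval 3.85 to 64.4, counting error only); the call was lost without BrM2 replicate 2 (0.181) or either LM2 replicate (0.0875 and 0.0782). KCNU1 had 46 and 2 reads, a ratio of 32.0 (8.36 to 272).

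**Figure D4:**
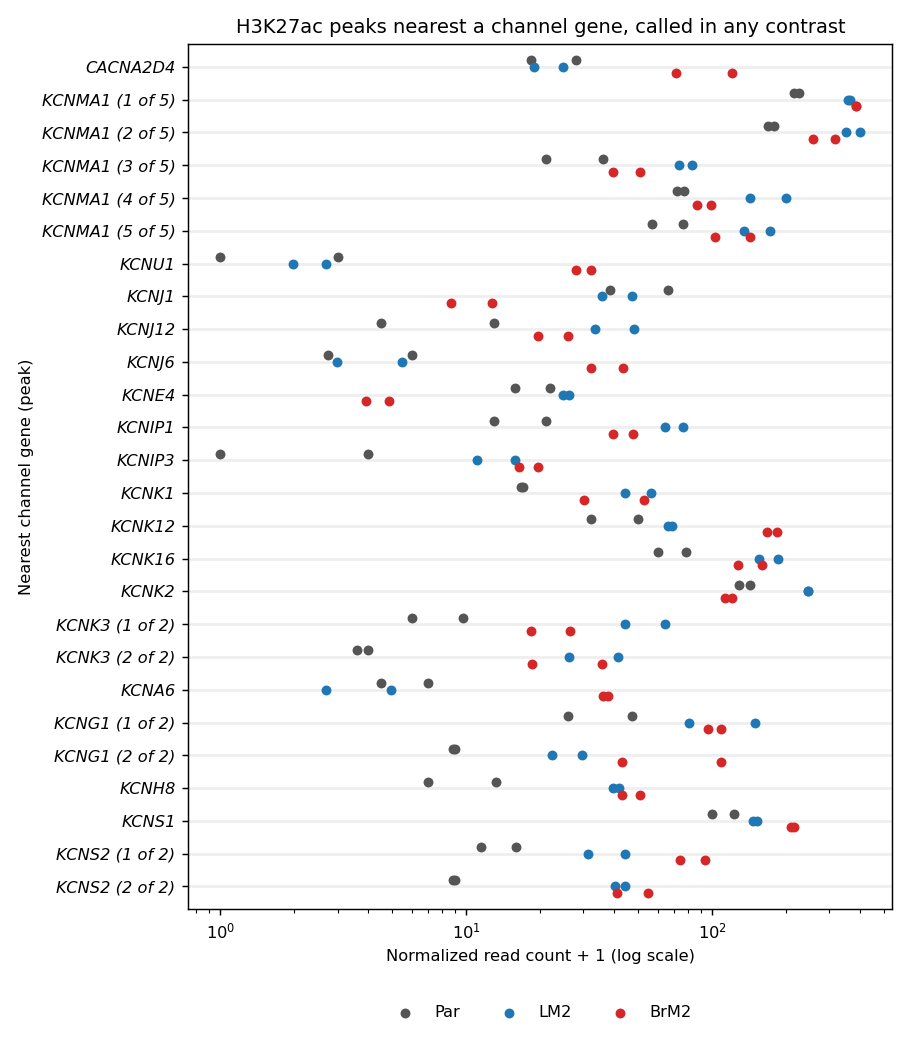
Normalized H3K27ac read count plus 1 (horizontal log axis) in each library at the 26 called peaks nearest a channel gene, with 1 row per peak and 2 points per line (Par grey, LM2 blue, BrM2 red). Par lies at the lower end at most peaks, and the exceptions include KCNJ1 and KCNE4, where BrM2 is lowest.

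Where a channel promoter carried both marks, their changes could be set side by side. At 47 genes, 53 overlapping pairs of an H3K4me3 and an H3K27ac peak were formed. Across these pairs the log2 fold changes of the marks had a Pearson correlation of 0.608 for LM2, 0.771 for BrM2 and 0.533 for BrM2 against LM2. The sign was the same in 36, 42 and 37 of the 53. The pairs share their cells but not their libraries, and neighbouring peaks share their surroundings, so these values describe the peaks and carry no test. Genes called in both marks were KCNH8 and KCNK1 in LM2, KCNH8, CACNA2D4 and KCNIP3 in BrM2, and CACNA2D4 between BrM2 and LM2. At KCNH8 the H3K27ac counts were 12.2 and 6.01 (Par), 41.0 and 38.4 (LM2) and 41.9 and 50.1 (BrM2). Both metastatic lines were again above Par (log2 2.11 ± 0.56, adjusted p = 0.0087, and 2.31 ± 0.57, 0.00277). The LM2 call was lost without either replicate of LM2 (0.311 and 0.144) or Par (0.0651 and 0.297), and the BrM2 call without either BrM2 replicate (0.0975 and 0.111) or Par replicate 2 (0.141). At CACNA2D4 they were 17.4 and 27.04, 18.0 and 23.7, and 70.2 and 119.5, with BrM2 above the others (log2 2.08 ± 0.48 over Par, adjusted p = 0.00101). That call was lost without BrM2 replicate 2 (0.242) or Par replicate 1 (0.099). At KCNK1, H3K27ac rose in LM2 from 15.7 and 16.03 to 43.2 and 55.2 (log2 1.63 ± 0.51, adjusted p = 0.0424), which was lost without any one library (0.0914 to 0.502). At KCNIP3 the called H3K27ac peak was a distal one. A KCNIP3 promoter peak of H3K27ac at an inner start passed only with the block, in BrM2 against LM2 (0.0199).

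**Figure D5:**
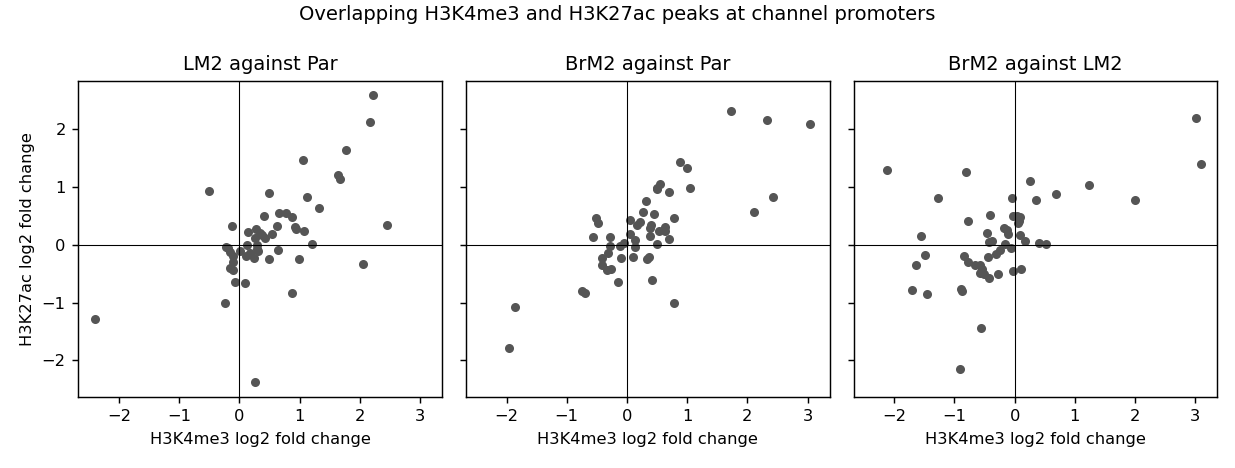
Log2 fold change of H3K27ac (vertical axis) against that of H3K4me3 (horizontal axis) for the 53 overlapping peak pairs at channel promoters, in 3 panels for the 3 comparisons. Most points lie where both changes have the same sign, 42 of 53 in BrM2 against Par.

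The 10 genes called in H3K27ac that lacked an H3K4me3 promoter peak included 6 of the 21 CG-rich ones: KCNK3, KCNS2, KCNMA1, KCNA6, KCNJ12 and KCNG1. The other 9 of the 19 called genes had an H3K4me3 promoter peak. In all, 81 channel genes had an H3K27ac peak, among them 11 of the 21. A gene with more peaks has more chances of a call. The 6 genes had 7 (KCNK3), 5 (KCNS2), 38 (KCNMA1), 1 (KCNA6), 5 (KCNJ12) and 2 (KCNG1). The share of called genes was not taken over all protein-coding genes, and a link between CG content and the calls was not tested.

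Genes that act with these channels were counted in the same way. The list of 44 held calcium channel beta and gamma subunits, pacemaker (HCN) channels, FGF13 and its relatives, ankyrins and others. H3K4me3 promoter peaks stood at 25 of them (33 peaks, all tested). In LM2 3 of these peaks rose and 0 fell, where 1.97% and 0.538% of all peaks did. In BrM2 3 rose and 0 fell (2.82% and 0.791% of all peaks), and 1 was higher and 1 lower in BrM2 than in LM2 (2.05% and 1.13%). H3K27ac peaks stood at 31 (155 peaks), with 0 of 117 tested called in LM2, where 2.72% of all peaks rose and 0.907% fell. In BrM2 3 of 127 were higher (3.62% of all peaks), and in BrM2 against LM2 3 of 114 (1.71%). HCN4, a pacemaker channel, had H3K4me3 counts of 69.8 and 62.4 (Par), 311.0 and 242.5 (LM2) and 359.9 and 270.1 (BrM2). Both metastatic lines were above Par (log2 2.07 ± 0.38, adjusted p = 1.12e-05, and 2.26 ± 0.38, 4.77e-07). FGF13, which binds sodium channels, rose in both lines, and CACNG4 rose in LM2 and NEDD4L in BrM2. CACNG7 was higher in BrM2 than in LM2.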

How the data were processed

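ChIP-seq of H3K4me3 and H3K27ac in MDA-MB-231 cells (Par) and the sub-populations LM2 and BrM2 gave 12 libraries, 2 per line and mark. Fixation was with 1% formaldehyde, for 10 min per the labels and for longer per the methods of the study. The 3 input samples were not used. The authors trimmed the reads, aligned them to hg19, removed duplicates and called broad consensus peaks on the merged libraries of a mark. The deposited values are raw counts of reads in each consensus peak, which the authors made with featureCounts after extending reads by 150 bases at the 3′ end. Since peaks were called on merged libraries, a region marked in a single line may be missed. The submitters' processing notes name CASAVA 1.8.2, Trimmomatic 0.32, Bowtie2 2.3.4.3, Picard 2.18.21, MACS2 2.1.2 and HOMER 4.10. Groups came from the sample titles, and 0 count columns were left without a sample.

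Starts were the 5′ ends of all protein-coding transcripts in GENCODE release 44 lifted to GRCh37. No peak of either mark reached past the end of a chromosome of the reference. Counts were tested with the DESeq2 1.42.0 Wald test in R 4.3.3, as in the study's methods, with the 6 libraries of a mark in one fit and line as the only term (3 residual degrees of freedom). Log2 fold changes were unshrunken and are given ± their standard error. P-values were adjusted by the Benjamini-Hochberg method over all peaks left by independent filtering, and a peak with an adjusted p under 0.05 is called. Normalized counts are counts divided by the library's size factor, and levels are compared between genes only per kb of peak. Intervals of count ratios cover counting error only. The scripts were tested on simulated data.

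Replicate numbers are shared by the lines. Deviations of same-numbered libraries from their line means correlated with r = 0.683, 0.632 and 0.675 for H3K4me3 and 0.245, 0.32 and 0.271 for H3K27ac, so the numbers were taken to pair the libraries. Alternatives were a fit blocked on replicate number, edgeR 4.0.16, TMM factors, other filters, other distances, gene-record starts, removal of 5 Mb medians and leaving out each library.

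The genes, classes and lists were chosen with earlier results of these data known. Peaks named are every called H3K4me3 peak, the 4 largest and 4 smallest called H3K27ac changes per comparison among peaks whose mean normalized count reached 20, genes called in both marks, the highest H3K4me3 per class and a list of 15 genes from breast cancer work. Some results under this rule, and one promoter sequence, are not reported here. Motifs, the window of 300 bases and further H3K27ac peaks were chosen after values were seen.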

Additional observations from a re-analysis of the deposited data

Results flagged for a closer look

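The following peaks responded differently in the 2 metastatic lines. The test is the BrM2 against LM2 comparison of the same DESeq2 fit, which equals the difference of the 2 effects against Par, and the values are log2 differences, BrM2 minus LM2. H3K4me3 was higher in BrM2 at CACNA2D4 (3.02), at the KCNIP3 gene start and longest peak (3.09 and 2.001), at both KCNN2 starts (5.04 and 4.79) and at SCN8A (3.74). It was lower in BrM2 at KCNJ5 (-1.56) and KCNJ8 (-1.63). The strongest KCNIP3 peak was not called (0.36, adjusted p = 0.86).

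H3K27ac was higher in BrM2 at CACNA2D4 (2.19), KCNA6 (3.78), KCNJ6 (3.41), KCNK12 (1.39) and KCNU1 (4.38). It was lower in BrM2 at KCNE4 (-2.90), KCNJ1 (-1.996) and KCNK2 (-1.08), where LM2 was above Par with the replicate block (adjusted p = 0.0151). Normalized counts at KCNE4, whose product is an auxiliary subunit of Kv channels, were 14.8 and 21.0 (Par), 25.2 and 23.7 (LM2) and 2.93 and 3.86 (BrM2). At KCNJ6, the GIRK2 channel, they were 1.74 and 5.01, 4.49 and 1.97, and 31.2 and 42.4. Leaving out 1 library of LM2 or BrM2 left between 0 and 2 of these 8 H3K27ac calls and between 2 and 4 of the 8 H3K4me3 calls. Groups of 2 libraries are too small for a search for single outlying libraries.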

How the results depend on the processing

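With 2 libraries per line, counts of calls moved with most settings, while the directions of the called peaks did not. The 15 H3K4me3 and 26 H3K27ac peaks gave 60 called results. Of 698 values of these under other fits or without a library, 0 turned sign, 513 stayed past the threshold and 185 did not, of which 9 came from settings other than leaving out a library. A further 12 had no adjusted p. Removal of 5 Mb medians turned no sign, and 10 of the 60 results stayed past the threshold in every such fit that gave an adjusted p. Depth limits the low peaks, where 1 line holds a few reads.

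For H3K4me3 the replicate block gave 19, 19 and 23 calls (LM2, BrM2 and BrM2 against LM2) in place of 7, 8 and 8. The replicate block in edgeR gave 33, 38 and 35. Leaving out a library gave 2 to 4, 3 to 8 and 2 to 7. Starts of gene records gave 5 in BrM2 and 5 in BrM2 against LM2. For H3K27ac the replicate block gave 20, 28 and 15 in place of 13, 16 and 8, and in edgeR 62, 71 and 39. EdgeR without the block gave 28 in LM2 and 30 in BrM2. Leaving out a library gave 1 to 11, 2 to 12 and 0 to 6. Peaks within 50 kb gave 9 in BrM2 and 4 in BrM2 against LM2, having fewer peaks to count, and a mean count of at least 20 gave 4 in the last. The cause of the other moves was not tested. Between BrM2 and LM2 the block gave 11 H3K4me3 peaks higher and 12 lower, in place of 6 and 2. It removed none of the 60 calls that it gave an adjusted p. The share of genes with an H3K4me3 promoter peak was 49.2% within 1 kb and 46.7% with gene-record starts. The correlation of the marks with the block was 0.602, 0.782 and 0.536.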

Other observations

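Some channel genes with many H3K27ac peaks had few calls or none but a common sign at most peaks in one line. Of the 18 peaks of KCNIP4, a Kv4-binding protein, 4 were above 0 in LM2 and 5 in BrM2 (median log2 fold change -0.26 and -0.27). For KCNQ5, an M-current subunit, 2 and 4 of 17 were above 0 (medians -0.53 and -0.19), and for the inward rectifier KCNJ15, 3 and 2 of 12 (-0.28 and -0.25). At KCNK2, the mechanosensitive channel TREK1, 9 of 10 were above 0 in LM2 (median 0.63) and 2 in BrM2 (-0.23), and 1 of the 10 was called. Peaks of 1 gene share their surroundings and libraries, so these counts carry no test.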
